A study of Rattus norvegicus with 69 samples.

Results

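Calcium/calmodulin-dependent (CaM) kinases and protein kinase C (PKC) isoforms were followed through 8 genes on the rat array: Camk2a, Camk2b, Camk2d and Camk2g, which encode the catalytic subunits of CaM kinase II (CaMKII), Camk4, which encodes CaM kinase IV, and Prkca, Prkcb and Prkce, which encode 3 PKC isoforms. The 8 genes were chosen with earlier results of these data known, and their probe sets by gene symbol alone. Every probe set annotated to a single member symbol was kept and treated separately, which gave 23 of 8740 probe sets and 8 of 4736 genes. Camk2d had 6 probe sets, Prkce 4, Camk2g and Prkcb 3 each, Camk2a, Camk2b and Camk4 2 each, and Prkca 1.

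RNA of hippocampal CA1 was measured in 69 male Fischer 344 rats (Fisher 344 in the labels) aged 3 to 5 months, on 1 Affymetrix array per animal, after sleep deprivation (SD) or after the stress of a new environment (NES). Home cage animals (HC, n = 17) served as the control. SD animals lived with their cage mate for 24 hours (24SD, n = 16) or 72 hours (72SD, n = 20) on platforms above water, and NES animals spent 24 hours (24NES, n = 10) or 72 hours (72NES, n = 6) in the same chambers with a rubberized grid covering the platforms, so that sleep was possible. Of these, 5 HC, 8 24SD, 8 72SD and all 16 NES animals belonged to cohort 1. The remaining 12 HC, 8 24SD and 12 72SD animals belonged to cohort 2. HC and SD animals of cohort 1 were trained on active avoidance beforehand, and the sources state no training for NES animals, so training cannot be told apart from cohort or from the step between NES and either HC or SD. The methods report that training left no mark on the array measures, without showing the data, and this was not tested here. The labels name no altered allele. The labels do not say which animals were cage mates, so each p-value treats animals as independent. In bulk tissue, fewer cells of a type and less RNA per cell cannot be told apart.

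CaMKII is an abundant kinase of the excitatory synapse. Its subunits assemble into a holoenzyme that Ca2+/calmodulin switches on and that can stay active through autophosphorylation, a step tied to long-term potentiation and memory in CA1. The alpha and beta subunits dominate in forebrain neurons, beta also binds actin, and the gamma and delta subunits are more widely expressed, with gamma known for carrying Ca2+/calmodulin towards the nucleus. CaM kinase IV is a mostly nuclear kinase that phosphorylates CREB. Conventional PKC isoforms, alpha and beta here, need Ca2+ and diacylglycerol, whereas the epsilon isoform needs diacylglycerol but not Ca2+.

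Values are log2 of the deposited MAS5 signal, a linear brightness per probe set. A probe set's brightness depends on its probes, so differences were tested between arrays only, and brightness served across probe sets only to rank or select them. Of the 23 probe sets, 14 lay in the upper 50% of mean signal: 7 of 13 for the CaMKII subunits, 0 of 2 for Camk4 and 7 of 8 for PKC. The array median ranged from 404 to 488, and the ratio of the 3′ to the 5′ GAPDH control, a sign of RNA integrity, from 0.916 to 1.26. Array 71 of 72NES stood apart, with the lowest median (404, against at least 455 for the other 72NES arrays) and the highest GAPDH ratio (1.26, against at most 1.18 for the other 68 arrays); 16 of its 23 member values lay below its group mean. On a score that is -1 for the mean profile of cohort 1 and 1 for that of cohort 2, HC arrays 6 and 17 of cohort 2 scored 0.0422 and 0.0877, and 24NES arrays 60 and 61 of cohort 1 scored 0.143 and 0.203, whereas the other arrays scored from -1.62 to -0.229 in cohort 1 and from 0.228 to 1.33 in cohort 2. These 4 arrays lay between the cohorts, and results that rest on them are given with and without them. Where arrays were left out, unadjusted counts are given for the members only, because the share of all probe sets was not taken there. Of the 6 general neuron markers measured, 5 lay in the upper 50% of signals, with Nrgn and Snap25 never below 14.24 and 13.87, whereas the Slc17a7 probe set was dim, reaching down to 3.55.

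Camk2g carried the only member probe set past the adjusted test for SD, so its promoter is shown. RefSeq places the 132 bases directly upstream of the annotated Camk2g start at chr15:3553106-3553237 of rat GRCr8, plus strand. Capitals mark the GC box, GGGCGG, the binding motif of Sp1-type factors.

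Camk2g: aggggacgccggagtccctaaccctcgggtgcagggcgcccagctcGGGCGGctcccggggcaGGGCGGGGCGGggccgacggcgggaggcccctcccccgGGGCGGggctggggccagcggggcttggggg

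The stretch was 84.1% G and C and held 4 GC boxes on the forward strand, a neighbouring pair of them overlapping by 1 base, and 0 on the reverse strand. A GC box on either strand was found in 14% of 33469 promoter windows of this length. The E box CACGTG, the CRE core TGACG and the TATA box TATAAA were each found 0 times here, and in 2.51%, 7.89% and 6.89% of those windows. A match describes letters, not a site in use. Promoters of 7 of the 8 member genes were in the table.

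The first question was whether SD changed mRNA for these kinases. In the F-test across HC, 24SD and 72SD, limma called 0 of 23 member probe sets at an adjusted p under 0.05, against 0.114% of all probe sets. At an unadjusted p under 0.05 it called 6, against 10.3% of all. At 24SD against HC, 1 of 23 passed the adjusted test (0.206% of all) and 5 the unadjusted one (14.8%). At 72SD, 0 passed the adjusted test (0.0229%) and 4 the unadjusted one (7.16%). Without HC arrays 6 and 17 the 72SD count at an unadjusted p was 2, both Camk2g, the Prkcb probe sets K03486_s_at and E01789cds_s_at no longer being called (unadjusted p = 0.186 and 0.109). The median member difference from HC was -0.02 at 24SD and -0.00 at 72SD on the log2 scale, beside -0.03 and -0.01 over all probe sets. At 24SD, 10 members were higher and 13 lower in point estimate, beside 42.8% of all probe sets higher. With HC arrays 6 and 17 left out, the member medians were -0.03 at 24SD and -0.05 at 72SD. Then 8 members were higher and 15 lower at 24SD, and 9 and 14 at 72SD. The unadjusted count was then 5 for the F-test and 5 for 24SD.

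**Figure D1:**
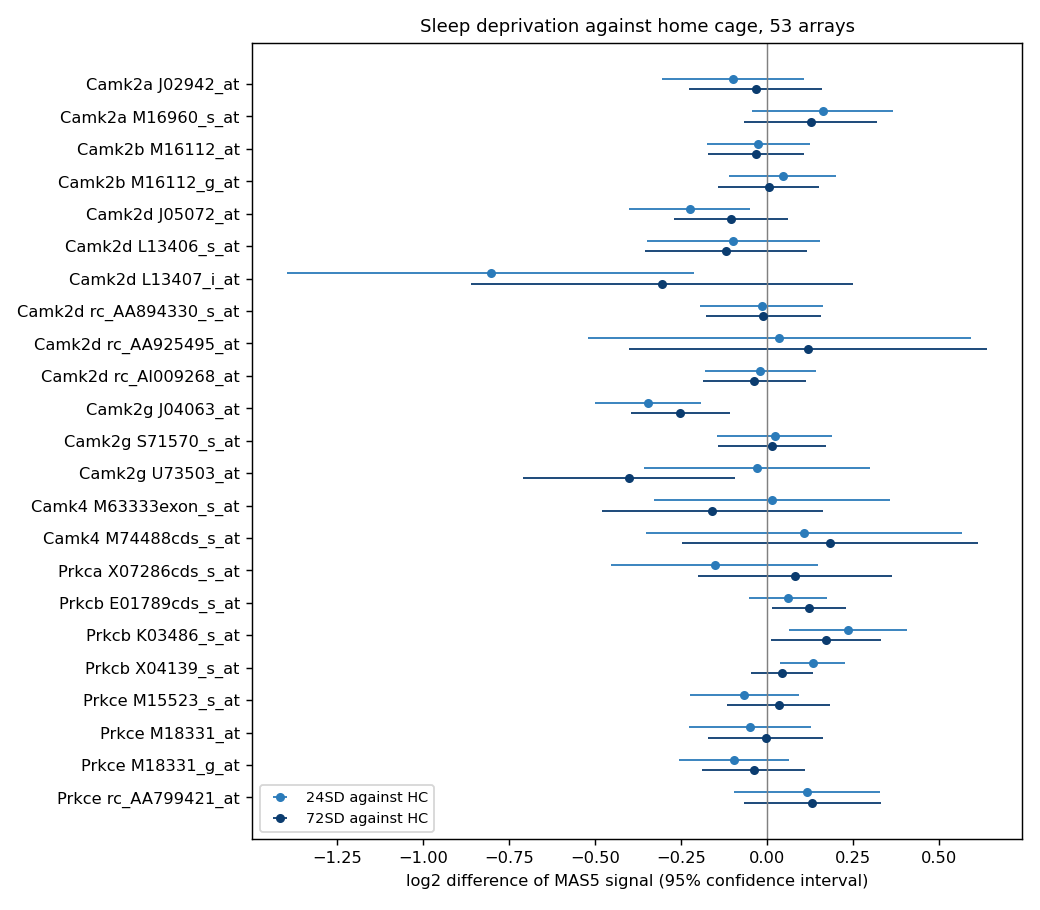
Log2 difference of MAS5 signal from HC for the 23 member probe sets, with 95% confidence intervals, at 24SD and 72SD, from the fit of 53 arrays with cohort as a term. Camk2g J04063_at sits at -0.35 and -0.25, and it is the sole member past the adjusted test, at 24SD.

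Camk2g J04063_at was lower after SD. In the 5 HC arrays of cohort 1 its log2 signal was 10.04, 9.83, 9.86, 9.60 and 9.71. The 8 24SD arrays of that cohort ran from 8.96 through a median of 9.48 to 9.85, and the 8 72SD arrays from 9.38 through 9.60 to 9.87. In cohort 1 all 24SD arrays but array 19 lay under every HC array, and the 72SD arrays overlapped HC. In cohort 2 the 12 HC arrays ran from 9.39 through 9.77 to 9.93. The 8 24SD arrays ran from 8.93 through 9.53 to 9.73, and the 12 72SD arrays from 9.10 through 9.42 to 9.74. The groups of cohort 2 overlapped, with the lowest SD arrays below all HC arrays.

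The fitted difference at 24SD was -0.35 ± 0.077 (SE), or 0.787-fold, with a 95% confidence interval from -0.50 to -0.19 (limma, adjusted p = 0.0277). At 72SD it was -0.25 ± 0.072 (0.840-fold, adjusted p = 0.313; unadjusted p = 0.000966). Against the HC mean of its own cohort, the value was lower in 14 of 16 24SD arrays and in 17 of 20 72SD arrays. The 72SD value differed from the 24SD value by 0.09, with an interval from -0.05 to 0.24.

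Each cohort alone gave the same direction. At 24SD the difference was -0.38 ± 0.128 in cohort 1 and -0.31 ± 0.100 in cohort 2, and at 72SD it was -0.22 ± 0.128 and -0.27 ± 0.089. With fewer arrays, neither cohort passed the adjusted test at 24SD (adjusted p = 0.281 and 0.417). The interaction of SD with cohort had an unadjusted p of 0.690. In the F-test across the 3 groups its adjusted p was 0.0720. Without HC arrays 6 and 17 the 24SD difference was -0.36 (adjusted p = 0.0249), and with the GAPDH ratio as a covariate the adjusted p was 0.0337. The call is close to its threshold: when each of 53 arrays was left out in turn, the difference ran from -0.37 to -0.31 and the adjusted p from 0.00987 to 0.0705, and it was lost without 24SD array 23, 28, 32 or 35 (adjusted p = 0.0574, 0.0611, 0.0705 and 0.0596).

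The other Camk2g probe sets did not share this pattern. For S71570_s_at, the brightest, the HC arrays of cohort 1 read 9.77, 10.02, 10.34, 10.29 and 10.23, and the 24SD arrays ran from 9.61 through 10.13 to 10.31. In cohort 2 the HC arrays ran from 9.96 through 10.49 to 10.77 and the 24SD arrays from 10.23 through 10.55 to 10.86. The groups overlapped throughout, and the difference was 0.02 at both durations, with an interval from -0.14 to 0.19 at 24SD.

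The dim probe set U73503_at differed by -0.03 at 24SD and by -0.40 ± 0.154 at 72SD (unadjusted p = 0.0118, adjusted p = 0.551), lower in 16 of 20 72SD arrays. Over 69 arrays, after subtracting the mean of each group within cohort, J04063_at correlated with S71570_s_at at Pearson r = 0.14 and with U73503_at at 0.03; these are descriptions over arrays that share their scaling. The lower Camk2g signal in SD was thus seen on J04063_at alone of the 3 at 24SD, and which transcripts each probe set detects was not analysed here.

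**Figure D2:**
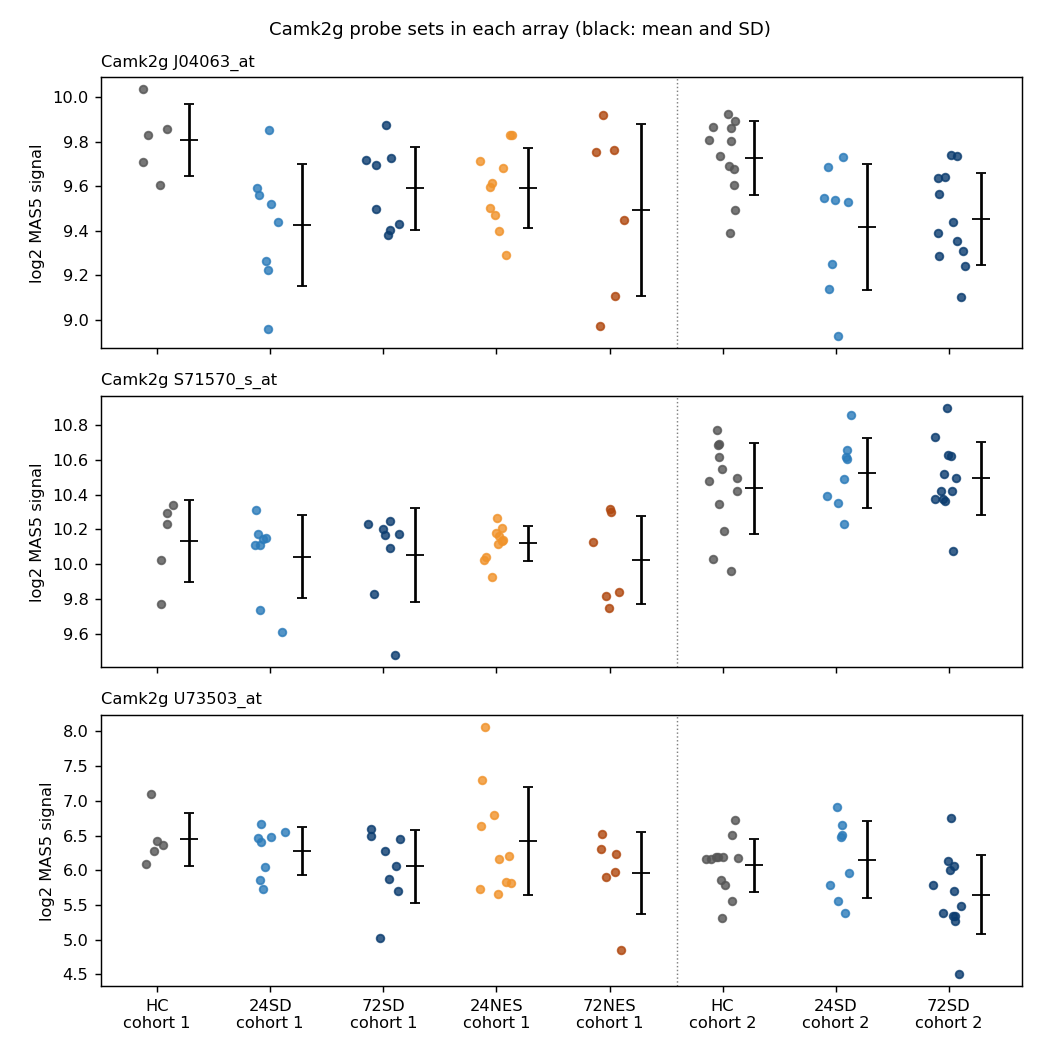
Log2 MAS5 signal of the 3 Camk2g probe sets, 1 point per array, in the 8 groups of cohort 1 (left of the dotted line) and cohort 2 (right), with mean and SD in black. J04063_at has its highest means in HC of both cohorts (9.81 and 9.73) and its lowest in 24SD (9.43 and 9.42), whereas S71570_s_at is level within each cohort and higher in cohort 2.

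Across the 8 groups, mean J04063_at ranked HC of cohort 1 (9.81 ± 0.16, SD), HC of cohort 2 (9.73 ± 0.17), 24NES (9.59 ± 0.18), 72SD of cohort 1 (9.59 ± 0.19), 72NES (9.49 ± 0.39), 72SD of cohort 2 (9.45 ± 0.21), 24SD of cohort 1 (9.43 ± 0.27) and 24SD of cohort 2 (9.42 ± 0.28). Every step between neighbours in that order was smaller than the SD of either, the largest being 0.14 between HC of cohort 2 and 24NES. Levels of cell type markers are given beside it. Of 8 general neuron genes, 6 were measured, with a median 24SD difference of -0.16, and 5 passed the unadjusted test and 0 the adjusted test. Those 5 were the dim Slc17a7 (-0.30), Snap25 (-0.24), Nefl (-0.16), Syp (-0.15) and Map2 (0.12), the only higher one. Nrgn, the remaining gene, was -0.12. The mean log2 level of the 6 genes spanned 12.50 to 12.75 in HC and 12.42 to 12.67 in 24SD of cohort 1, and 12.24 to 12.60 and 12.10 to 12.33 in cohort 2. Of 3 dentate granule cell genes, Neurod1 and Il1rap were measured, at 0.36 and 0.29 in 24SD (adjusted p = 0.0854 and 0.216); their mean level spanned 9.65 to 9.87 and 9.99 to 10.25 in HC and 24SD of cohort 1, and 9.61 to 10.60 and 10.09 to 10.92 in cohort 2. At 24SD an unadjusted p under 0.05 was reached by 3 of 5 interneuron genes (Pvalb at 0.19, Slc32a1 at -0.17 and Gad2 at -0.19), 2 of 5 astrocyte genes (Aqp4 at -0.21 and Slc1a2 at -0.11), 2 of 4 microglial genes (C1qb at 0.14 and Itgam at -0.53), 1 of 4 endothelial genes (Slc2a1 at 0.20), and 0 of 5, 2 and 2 genes of oligodendrocytes, choroid plexus and blood. The Itgam probe set was dim, reaching down to a log2 signal of 2.41, and differed by -0.05 at 72SD. No marker passed the adjusted test. The part of these markers in the Camk2g result was not tested.

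Camk2a, the subunit that dominates in CA1 pyramidal neurons, showed no difference past the test. J02942_at read 10.13, 9.87, 9.87, 9.99 and 9.66 in HC of cohort 1 and ran from 9.55 through 9.74 to 10.35 in 24SD and from 9.46 through 9.79 to 10.15 in 72SD. In cohort 2 it ran from 8.95 through 9.29 to 9.78 in HC, 8.89 through 9.20 to 9.59 in 24SD and 8.73 through 9.55 to 9.84 in 72SD. All SD groups overlapped HC. The difference was -0.10 at 24SD and -0.03 at 72SD, and for M16960_s_at it was 0.16 and 0.13. The intervals of the 2 Camk2a probe sets together reached from -0.31 to 0.37 at 24SD and from -0.23 to 0.32 at 72SD.

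Camk2b, the actin-binding subunit, showed no difference past the test. M16112_g_at read 13.96, 14.05, 14.60, 13.92 and 14.12 in HC of cohort 1, with 24SD from 13.84 through 14.06 to 14.55. The HC arrays of cohort 2 ran from 13.48 through 13.88 to 14.06, and its 24SD arrays from 13.48 through 13.91 to 14.44. The groups overlapped fully. Both Camk2b probe sets differed by -0.02 to 0.05 at 24SD and by -0.03 to 0.01 at 72SD, and their intervals together ran from -0.17 to 0.20 and from -0.17 to 0.15. 

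Camk2d, the delta subunit, had 6 probe sets of unequal behaviour. J05072_at was 8.30, 7.49, 7.93, 8.36 and 7.72 in HC of cohort 1 and ran from 7.29 through 7.77 to 7.86 in 24SD, an overlap with the lower HC arrays alone. In cohort 2 it ran from 7.31 through 7.67 to 8.07 in HC and from 7.10 through 7.55 to 7.83 in 24SD. The 24SD difference was -0.22 ± 0.088 (unadjusted p = 0.0138, adjusted p = 0.217), lower than the HC mean in 13 of 16 arrays.

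L13407_i_at, a very dim Camk2d probe set, differed by -0.80 ± 0.295 at 24SD (unadjusted p = 0.00873, adjusted p = 0.184). In HC of cohort 1 it read 6.96, 4.15, 5.47, 6.48 and 3.90, and 24SD ran from 3.14 through 3.71 to 4.54. In cohort 2, HC ran from 3.42 through 3.97 to 5.52 and 24SD from 3.41 through 3.66 to 5.26. The gap lay in cohort 1, with HC itself widely spread, and the interaction of SD with cohort had an unadjusted p of 0.0243 (adjusted p = 0.643). The remaining 4 Camk2d probe sets differed by -0.10 to 0.04 at 24SD.

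For the interaction, limma called 0 of 23 members at an adjusted p (0.0343% of all) and L13407_i_at alone at an unadjusted p (6.76% of all). For 72SD against 24SD it called 0 at an adjusted p (0% of all) and 1, Camk2g U73503_at, at an unadjusted p (4.11% of all). Without HC arrays 6 and 17 the unadjusted counts were 2 for the interaction, with Camk4 M74488cds_s_at added, and 3 for 72SD against 24SD, with Prkca (0.24) and Prkcb X04139_s_at (-0.09) added, and the adjusted counts stayed 0.

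Camk4, the CREB kinase, was dim on both probe sets, so its intervals were wide. M74488cds_s_at read 3.79, 5.95, 5.73, 6.18 and 7.15 in HC of cohort 1, and 24SD ran from 4.79 through 6.38 to 7.21. In cohort 2, HC ran from 4.96 through 6.71 to 7.28 and 24SD from 5.86 through 6.79 to 7.03. HC covered the whole range of the SD arrays in cohort 2. Camk4 differed by 0.02 and 0.11 at 24SD, with intervals together from -0.35 to 0.57, and by -0.16 and 0.18 at 72SD, with intervals from -0.48 to 0.61. The intervals allow a difference of either sign within those bounds.

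Prkcb, the beta isoform of conventional PKC, was higher in point estimate on all 3 probe sets at both durations, but passed no adjusted test. K03486_s_at read 11.84, 11.78, 11.89, 12.02 and 12.22 in HC of cohort 1, from 11.85 through 12.16 to 12.36 in 24SD and from 11.76 through 12.22 to 12.58 in 72SD. In cohort 2 it ran from 12.09 through 13.00 to 13.29 in HC, from 12.87 through 13.21 to 13.49 in 24SD and from 12.69 through 13.06 to 13.27 in 72SD. Only 2 of 16 24SD arrays and 3 of 20 72SD arrays lay below the HC mean of their cohort.

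The K03486_s_at difference was 0.24 ± 0.085 at 24SD (unadjusted p = 0.00765, adjusted p = 0.179) and 0.17 ± 0.080 at 72SD (adjusted p = 0.663). HC arrays 6 and 17, 2 of the arrays between the cohorts, were the lowest of cohort 2 at 12.54 and 12.09. Without them the differences were 0.16 ± 0.074 (adjusted p = 0.369) and 0.09 ± 0.070 (adjusted p = 0.886).

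X04139_s_at, the brightest Prkcb probe set, read 13.55, 13.65, 13.84, 13.51 and 13.71 in HC of cohort 1 and ran from 13.61 through 13.84 to 14.06 in 24SD. In cohort 2 HC ran from 13.74 through 14.04 to 14.19 and 24SD from 13.99 through 14.11 to 14.38. Its difference was 0.13 ± 0.047 at 24SD (unadjusted p = 0.00697, adjusted p = 0.177) and 0.04 ± 0.044 at 72SD. E01789cds_s_at differed by 0.06 at 24SD and 0.12 at 72SD (unadjusted p = 0.0246). Without HC arrays 6 and 17 the 24SD differences of these 2 probe sets were 0.11 and 0.02. The intervals of all 3 Prkcb probe sets together ran from -0.05 to 0.41 at 24SD.

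**Figure D3:**
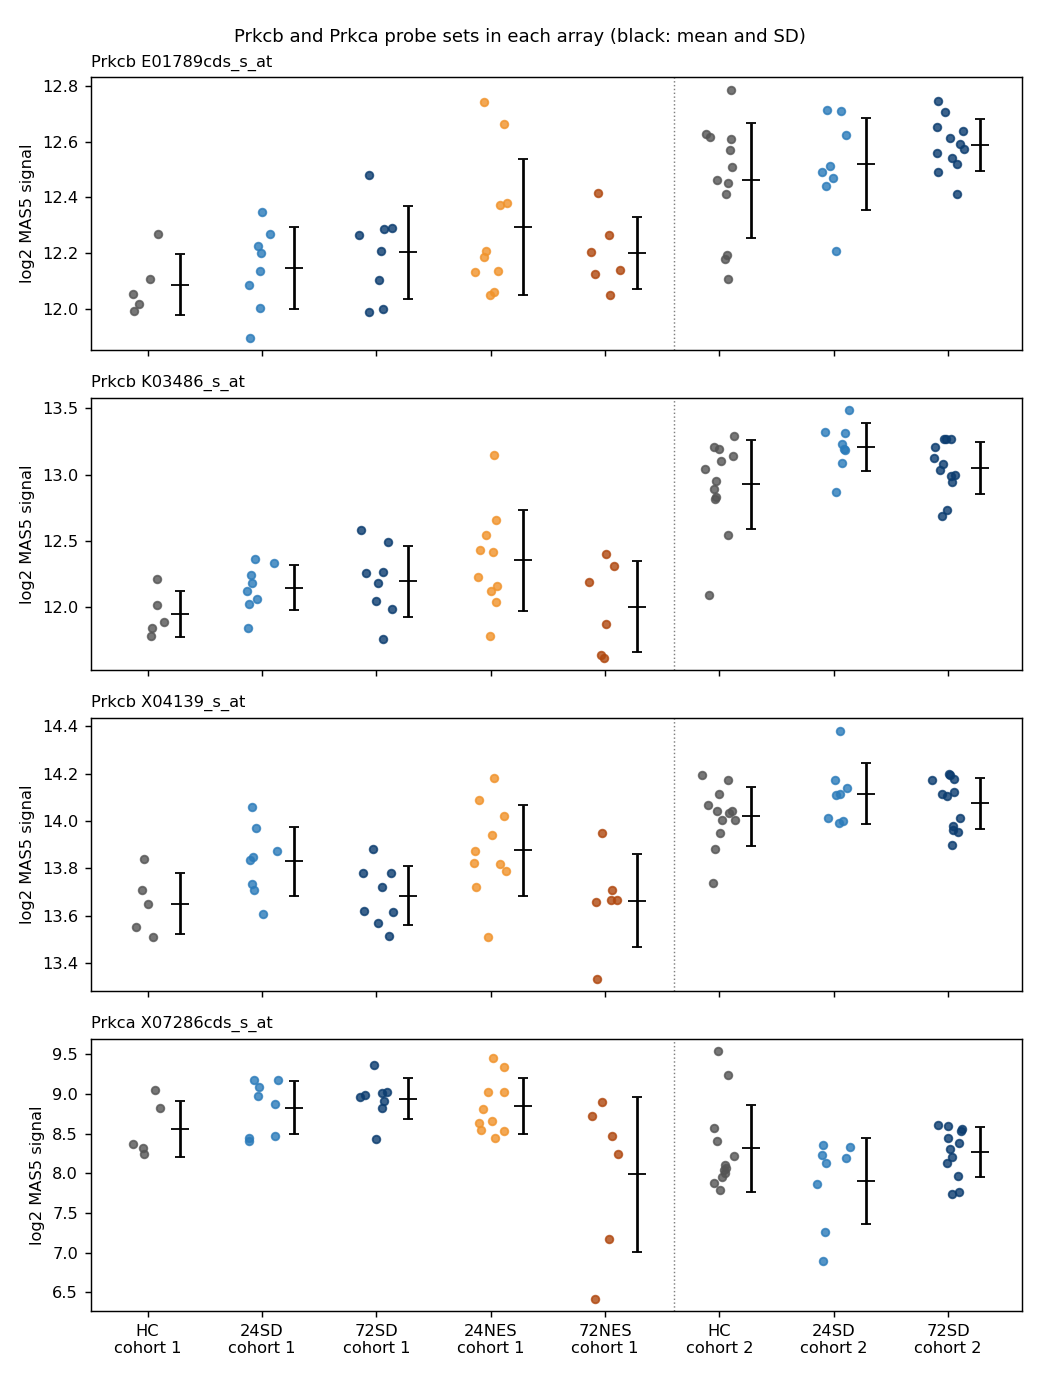
Log2 MAS5 signal of the 3 Prkcb probe sets and the Prkca probe set, 1 point per array, by group and cohort, with mean and SD in black. Prkcb K03486_s_at sits near 12 in cohort 1, apart from the higher 24NES arrays 60 and 61, and near 13 in cohort 2, apart from the lower HC arrays 6 and 17. Prkca falls to 7.18 and 6.42 in 72NES arrays 69 and 71.

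Prkca, the alpha isoform, had 1 probe set and no SD difference past the test. X07286cds_s_at read 8.25, 8.32, 9.04, 8.37 and 8.82 in HC of cohort 1 and ran from 8.41 through 8.92 to 9.18 in 24SD and from 8.43 through 8.98 to 9.37 in 72SD. In cohort 2 it ran from 7.79 through 8.08 to 9.54 in HC, where arrays 6 and 17 were the highest at 9.54 and 9.23, and from 6.89 through 8.16 to 8.35 in 24SD. The overlap was broad in both cohorts. The difference was -0.15 ± 0.15 at 24SD and 0.08 ± 0.14 at 72SD, and -0.00 ± 0.126 and 0.24 ± 0.119 without HC arrays 6 and 17 (adjusted p = 0.995 and 0.801).

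Prkce, the Ca2+-independent epsilon isoform, differed by -0.09 to 0.12 at 24SD and by -0.04 to 0.13 at 72SD over its 4 probe sets. The brightest, M18331_g_at, read 12.31, 12.54, 12.52, 12.31 and 12.56 in HC of cohort 1 and ran from 12.08 through 12.17 to 12.52 in 24SD. In cohort 2 HC ran from 11.28 through 11.86 to 12.07 and 24SD from 11.61 through 11.76 to 12.11. In cohort 1 all 24SD arrays but array 19 lay below every HC array, and in cohort 2 the groups overlapped. Its difference was -0.09 ± 0.080 at 24SD, and the intervals of the 4 Prkce probe sets together ran from -0.26 to 0.33.

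The second question was whether the chamber with its platforms covered changed the same mRNAs; the sleep of these animals is not part of the data analysed here. NES was compared with the 5 HC arrays of cohort 1, and limma called 0 of 23 members in the NES F-test at an adjusted p (0% of all) and 1 at an unadjusted p (8.63% of all). At 24NES it called 0 (0.0114% of all) and 2 (10.7%), and at 72NES 0 (0% of all) and 0 (5.03%). Without 24NES arrays 60 and 61 the unadjusted counts (share of all probe sets not taken) were 0 for the F-test and 1 for 24NES, and without array 71 the F-test had 2. Those 2 were Camk4 M74488cds_s_at (unadjusted p = 0.0441) and Prkcb X04139_s_at (unadjusted p = 0.0302), whereas the 1 with all arrays was Prkca. These comparisons share their HC arrays with those of SD in cohort 1, so the values are set side by side and not correlated.

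Camk2g J04063_at ran from 9.29 through 9.61 to 9.83 in 24NES and from 8.97 through 9.60 to 9.92 in 72NES, beside the 9.60 to 10.04 of HC. It was -0.21 ± 0.142 at 24NES, with an interval from -0.51 to 0.08, and -0.31 ± 0.157 at 72NES, with an interval from -0.64 to 0.01. It lay below the HC mean in 8 of 10 24NES and 5 of 6 72NES arrays. Both groups overlapped HC. Without array 71, its lowest, the 72NES difference was -0.21.

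Camk4 M74488cds_s_at ran from 5.38 through 7.07 to 7.47 in 24NES, and 9 of 10 arrays lay above the HC mean, although the highest HC array, at 7.15, lay within their range. The difference was 1.11 ± 0.423 (unadjusted p = 0.0160, adjusted p = 0.338), and 0.97 ± 0.448 without 24NES arrays 60 and 61. HC array 1 lowered the HC mean of this dim probe set, at 3.79 against 5.73 to 7.15 on the other HC arrays. The difference without HC array 1 was not taken. Prkcb K03486_s_at ran from 11.79 through 12.32 to 13.15 in 24NES, with arrays 60 and 61 the highest at 13.15 and 12.66. Its difference was 0.40 ± 0.181 (unadjusted p = 0.0373, adjusted p = 0.426), and 0.27 ± 0.154 without those 2 arrays.

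Prkca had the smallest p of the NES F-test among the members (unadjusted p = 0.0283, adjusted p = 0.504). Without array 71 its unadjusted p in that F-test was 0.0893. Prkca ran from 8.45 through 8.73 to 9.45 in 24NES, whereas the 6 72NES arrays read 8.72, 7.18, 8.25, 6.42, 8.90 and 8.47. Arrays 69 and 71 lay below every other array of cohort 1, and the other 4, at 8.25 to 8.90, lay at the level of HC. The difference was 0.29 ± 0.312 at 24NES and -0.57 ± 0.345 at 72NES, and -0.26 ± 0.275 at 72NES without array 71. Camk2a J02942_at also rested on array 71 in that group: its 72NES difference of -0.52 became -0.08 without array 71, where it read 7.16 against at least 9.63 on the other 5 arrays.

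SD was then compared with NES at the same duration within cohort 1, the comparison in which both groups lived in the chamber. At 24 hours limma called 0 of 23 members at an adjusted p (0.0114% of all) and 3 at an unadjusted p (5.97%), and at 72 hours 0 (0% of all) and 1 (6.69%). At 24 hours 22 of 23 members were lower in 24SD than in 24NES, while 45.8% of all probe sets were higher. The member median was -0.15, beside -0.02 over all probe sets. The probe sets share the same arrays, and without 24NES arrays 60 and 61 the count was 18 of 23 and the median -0.13. Against HC of cohort 1, 16 members were higher and 7 lower at 24NES, beside 49% of all probe sets higher. The member median there was 0.10, beside -0.01 over all probe sets, and 0.09 without 24NES arrays 60 and 61. At 24SD against HC of both cohorts, 10 members were higher and 13 lower, with a median of -0.02.

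The 3 were Prkce M18331_g_at (-0.25 ± 0.110, unadjusted p = 0.0313), Prkce M15523_s_at (-0.23 ± 0.105, unadjusted p = 0.0343) and Camk4 M63333exon_s_at (-0.60 ± 0.289, unadjusted p = 0.0472). For M18331_g_at, 24SD ran from 12.08 through 12.17 to 12.52 and 24NES from 12.22 through 12.42 to 12.79, with HC beside 24NES at 12.31 to 12.56. For M15523_s_at, 24SD ran from 11.55 through 11.78 to 12.23 and 24NES from 11.83 through 12.03 to 12.35. The groups overlapped in both. Without 24NES arrays 60 and 61 the unadjusted count was 2, both Prkce: M18331_g_at kept its call (unadjusted p = 0.0487) and M18331_at gained one (-0.30, unadjusted p = 0.0281), whereas M15523_s_at and M63333exon_s_at lost theirs (unadjusted p = 0.0898 and 0.227). Camk2g J04063_at differed by -0.17, with an interval from -0.41 to 0.07, so a difference between SD and NES was not detected for it.

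At 72 hours Prkca was 0.95 ± 0.259 higher in 72SD than in 72NES (unadjusted p = 0.000797, adjusted p = 0.498). The 72SD arrays of cohort 1 ran from 8.43 through 8.98 to 9.37, above 3 of the 6 72NES arrays and overlapping the others. Without array 71 the difference was 0.64 ± 0.219 (unadjusted p = 0.00631, adjusted p = 0.987). Array 71 had the GAPDH ratio and median that stood apart; leaving out array 69 was not tested. Without array 71, or without 24NES arrays 60 and 61, 2 members had an unadjusted p under 0.05 at 72 hours, Prkca with Camk2d J05072_at (-0.30) in the first case and with Camk2a M16960_s_at (0.33) in the second.

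**Figure D4:**
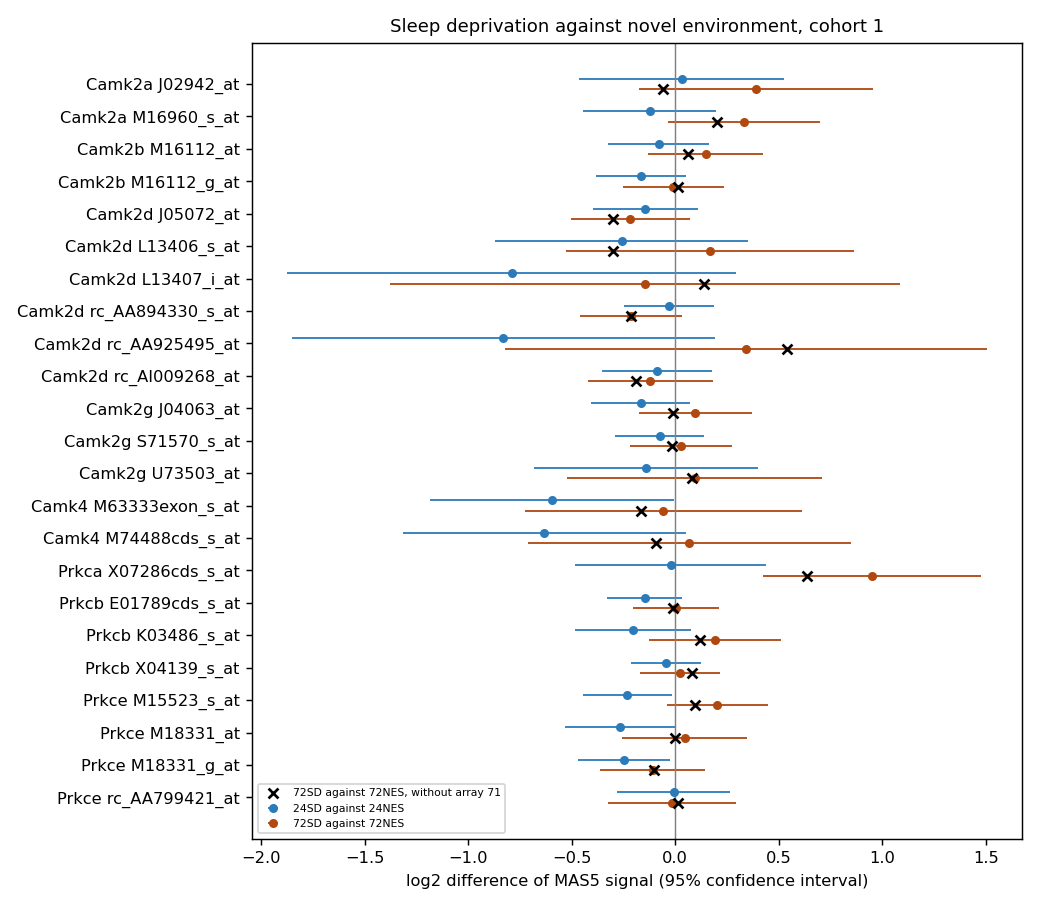
Log2 difference between SD and NES in cohort 1 for the 23 member probe sets, with 95% confidence intervals, at 24 and 72 hours; black crosses give the 72-hour value without array 71. At 24 hours all but Camk2a J02942_at lie below 0, while 45.8% of all probe sets lay above it. At 72 hours Prkca stands at 0.95, or 0.64 without array 71.

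Between cohort 2 and cohort 1, with group in the model, 18 of 23 members passed the adjusted test, against 50.4% of all probe sets, and 19 the unadjusted one (56.2%). The 18 comprised 8 higher in cohort 2 (22% of all probe sets were) and 10 lower (28.4%). The median size of the difference was 0.38 for the members and 0.24 for all probe sets. The methods describe a lower array background in cohort 2, which cannot be told apart from a difference in mRNA here.

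All 3 Prkcb probe sets were higher in cohort 2, by 0.96 ± 0.069, 0.38 ± 0.046 and 0.35 ± 0.038. Prkce was lower, by -0.45 to -0.38 on the 3 probe sets that passed and by -0.18 on rc_AA799421_at, which did not (adjusted p = 0.0678). Prkca fell by 0.63 and both Camk2b probe sets by 0.31 and 0.22. Probe sets of 1 gene could go opposite ways: Camk2a J02942_at was -0.48 and M16960_s_at 0.24, Camk2g S71570_s_at was 0.41 and U73503_at -0.31 (adjusted p = 0.0474, and 0.0593 to 0.203 with quantile normalization, median centring, a floor of 50 or a robust prior), and Camk2d ranged from -0.66 for L13407_i_at to 1.73 for rc_AA925495_at. Camk2g J04063_at, at -0.08 with an interval from -0.20 to 0.05, and both Camk4 probe sets were among the 5 that did not pass. 

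**Figure D5:**
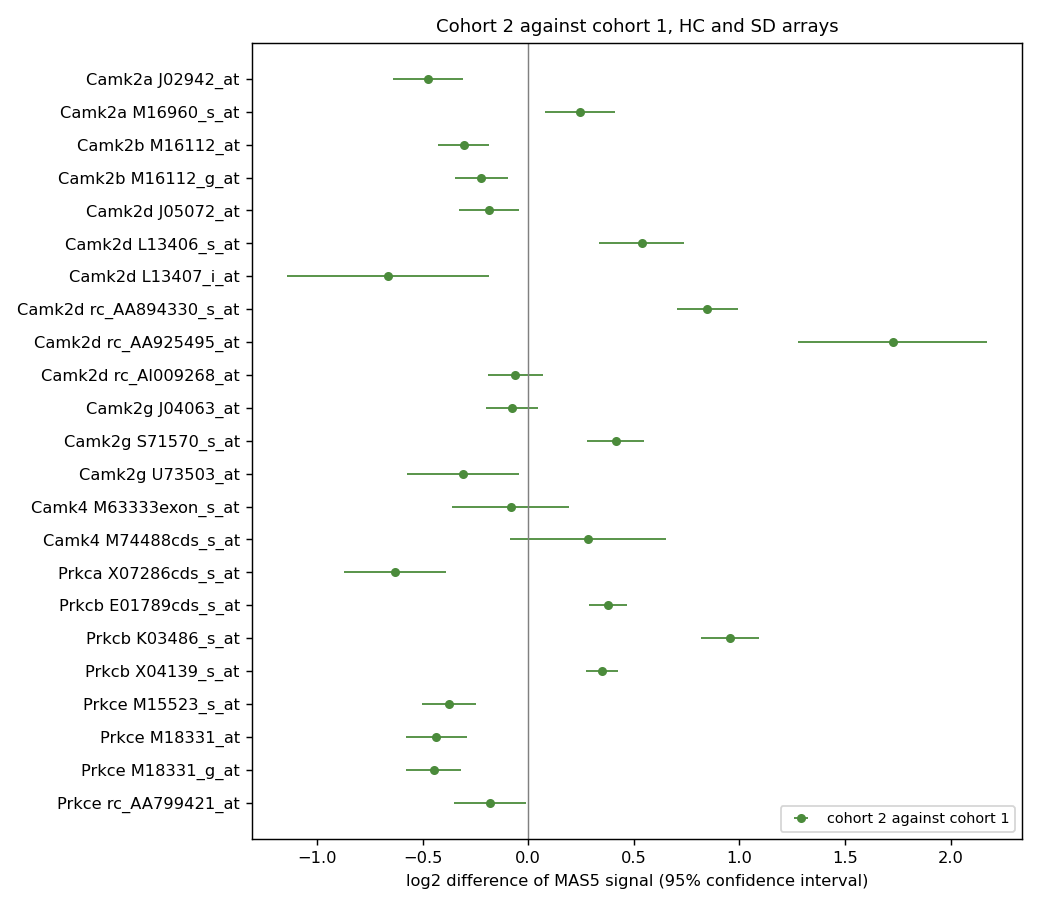
Log2 difference between cohort 2 and cohort 1 for the 23 member probe sets, with 95% confidence intervals, from 53 HC and SD arrays with group in the model. Prkcb lies above 0 and Prkce below, while the 6 Camk2d probe sets spread from -0.66 to 1.73.

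In the median, probe sets of the same gene varied together only loosely. After subtracting the mean of each group within cohort, the 30 pairs of probe sets of 1 gene had a median r of 0.23 over 69 arrays, from -0.24 to 0.84, and the 223 pairs from different genes a median of 0.096. Both Camk2b probe sets (r = 0.83) and Prkce M18331_at with M18331_g_at (r = 0.84) tracked each other, 2 pairs whose names share a sequence record. The Camk2d pairs reached at most 0.42.

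By the same measure, the probe sets of other genes most like the brightest probe set of 6 members, among the upper 50% of signals, were as follows; these are descriptions over arrays that share their scaling. Prkcb was closest to Map2 (r = 0.76), a neuronal microtubule protein, Nfix (0.67) and Rheb (0.66). Prkca was closest to Nsf (0.68), Ppp2r2c (0.67) and Apc (0.67), and Camk2a to Celf2 (0.63), Exoc5 (0.62) and Nfia (0.59). Camk2g S71570_s_at was closest to Rpl27a (0.59), Cdh22 (0.50) and Maoa (0.50), Camk4 to Cdh2 (0.50), Psma4 (0.48) and Epha5 (0.48), and Prkce to Camk2b (0.49), Por (0.47) and Ap3m2 (0.46). Each r was also taken without the 2 arrays farthest from the median of the member probe set. The Prkca values were then 0.56, 0.53 and 0.54. Over all these pairs, r then ran from 0.39 (Camk4 with Epha5) to 0.71 (Prkcb with Map2).

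Genes around these kinases were taken from 6 lists, of which 45 of 64 genes were measured by 73 probe sets. In the SD F-test and at 24SD, 72SD, 24NES and 72NES against HC, limma called 0 of the 73 at an adjusted p. At an unadjusted p, 10 were higher and 4 lower at 24SD, beside 5.69% and 9.08% of all probe sets, and 2 and 3 at 72SD, beside 3.1% and 4.06%. The median difference of the 73 was -0.03 at 24SD, as over all probe sets.

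Upstream, among 28 probe sets of phospholipase C, diacylglycerol kinases and IP3 receptors, 6 were higher and 3 lower at 24SD at an unadjusted p, to be read beside the same 5.69% and 9.08%. Dgka, which removes the PKC activator diacylglycerol, was 0.20 at both durations of SD (adjusted p = 0.0924 and 0.292), and 0.55 at 24NES (adjusted p = 0.101). Itpr1, an IP3-gated Ca2+ channel, was 0.18 at 24SD and 0.19 at 72SD (adjusted p = 0.217 and 0.497).

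Of the regulators of CaMKII, Camk2n2, an inhibitor of the kinase, was -0.31 at 24SD and -0.22 at 72SD (adjusted p = 0.144 and 0.633), the sole probe set among 12 in its list at an unadjusted p at 24SD. Its level in 24NES lay -0.39 from HC (adjusted p = 0.436), and in 72NES -0.51 (adjusted p = 0.928), and 72SD exceeded 72NES by 0.42 (unadjusted p = 0.00952, adjusted p = 0.699). Camk2n1, its relative, was -0.07 and -0.15. Of calmodulin and its buffers, 0 of 5 probe sets passed either threshold at 24SD, Nrgn being -0.12 and Gap43 -0.10. Of the opposing phosphatases, 3 of 11 probe sets were higher at 24SD at an unadjusted p (5.69% of all were), with Ppp1cb, a catalytic subunit of protein phosphatase 1, at 0.45 (adjusted p = 0.127) and Ppp1cc at 0.20.

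Among 7 probe sets of other PKC and PKC-related kinases, Prkch was -0.13 at 24SD and -0.26 at 72SD (unadjusted p = 0.00773), and Pkn2 -0.10 and 0.08. Of 10 probe sets of PKC substrates and anchors, Akap12, a scaffold that binds PKC, was 0.57 at 24SD (adjusted p = 0.264) and 0.24 at 72SD, and Marcks, a membrane-bound PKC substrate, 0.13 and -0.04.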

How the data were processed

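Members and gene lists were chosen with earlier results of these data known. The intensity values, as deposited by the authors, are 1 linear MAS5 signal per probe set and array (version not given in the sources used here); MAS5 is named in the submitters' processing notes. Each array was scaled as a whole by the authors before deposit. Of 8799 probe sets, 59 controls were left out. Signals were set to at least 1 and taken to log2. Groups came from the labels, and each p-value measures the spread between animals; the number of arrays limits precision.

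Linear models were fitted with limma 3.58.1 (lmFit, eBayes) in R 4.3.3, with Benjamini-Hochberg adjustment over 8740 probe sets and a threshold of 0.05. The SD model held 53 arrays with group and cohort, the NES model 21 arrays of cohort 1, and SD against NES 37 arrays of cohort 1. All member probe sets were named; list genes were named when they passed an adjusted test or had 1 of the 2 smallest p-values of their list in the SD F-test, and 3 nearest patterns were named for 6 members. Marker genes were taken by their brightest probe set, and those named were chosen after their values were seen. Scripts were tested on simulated data. Alternatives covered normalization, a floor of 50, dim probe sets, the variance prior, the GAPDH ratio, the cohort term, the methods' 1-way ANOVA and left-out arrays. Leaving out each SD-model array in turn, HC arrays 6 and 17, and 24NES arrays 60 and 61 was chosen after seeing the data. Figures were drawn with matplotlib 3.10.9 in Python 3.11.15.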

Additional observations from a re-analysis of the deposited data

Results flagged for a closer look

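In 10 of 138 groups of 4 to 10 arrays (7.25%), 1 array's log2 signal lay far from the rest of its group; chance flags about 1 in 20 groups. Array 71 of 72NES, which also had the highest GAPDH ratio, was low for Camk2a J02942_at (7.16, others 9.63 to 9.98), Camk2a M16960_s_at (9.10, others 9.76 to 10.15) and Camk2d L13406_s_at (4.39, others 6.62 to 7.89). In the same group, Camk2d rc_AA894330_s_at was high on array 69 (10.77, others 9.68 to 9.97) and Camk2g U73503_at low on array 68 (4.85, others 5.90 to 6.52). Camk2b M16112_g_at was high on HC array 3 of cohort 1 (14.60, others 13.92 to 14.12). Among 24SD arrays, Camk4 M63333exon_s_at was high on array 31 (7.42, others 5.36 to 5.93), Prkcb X04139_s_at on array 30 (14.38, others 13.99 to 14.18) and Prkce M18331_g_at on array 19 (12.52, others 12.08 to 12.27). Prkce rc_AA799421_at was low on 24NES array 58 (10.63, others 11.38 to 12.02).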

How the results depend on the processing

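No paired analysis was possible because each subject number belongs to 1 animal, so the groups share none. Member probe sets past the adjusted SD F-test numbered 1 in place of 0 with a floor of 50, with the upper 50% of signals, and with the methods' 1-way ANOVA with or without removal of values over 2 SD from the mean; in each it was Camk2g J04063_at. At 24SD against HC the count was 0 in place of 1 in a model without cohort, and 0 in either cohort by itself. Leaving out 1 array at a time gave 0 to 1 for the SD F-test and 0 to 1 for 24SD against HC. For Camk2g J04063_at at 24SD the adjusted p ranged from 0.0121 to 0.417 over 10 other settings and was under 0.05 in 7. No difference changed sign in these settings where its unadjusted p was under 0.05. Over all probe sets, 24SD calls numbered 18, and 39 with median centring, 41 with a floor of 50, 49 with the upper 50% of signals, 35 with the GAPDH ratio, 32 with a robust prior, 27 with quantile normalization, 1 without cohort and 0 within cohort 2, and 11 (without 24SD array 23 or 32) to 41 (without 24SD array 31) when 1 array was left out. F-test calls over all probe sets numbered 10, and 18 with median centring, 16 with the upper 50% of signals, 172 for the ANOVA with removal, 3 without HC arrays 6 and 17, 1 without cohort and 0 within cohort 2. Interaction calls numbered 3, and 0 to 16 over the settings, and 24NES calls 1, and 0 to 23. The causes were not tested. The Camk2d cohort differences of J05072_at and L13407_i_at lost their calls under quantile normalization (adjusted p = 0.0666 and 0.087).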
